A study of Homo sapiens with 8 samples.

Results

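Chaperones and disulfide isomerases of the endoplasmic reticulum (ER) lumen were represented by 10 genes: HSPA5, HSP90B1, CALR, CANX, PDIA3, PDIA4, PDIA6, DNAJB11, HYOU1 and SDF2L1. They were selected on their log2 ratios, because all of them had lower signal in transfected than in mock cells on both arrays of HCT116, so their HCT116 ratios are given as a description and were not tested. Every non-control probe that the array annotation assigns to one of them was taken, which gave 13 of the 58201 probes and 10 of the 42072 named genes. HSP90B1, CANX and PDIA3 had more than 1 probe, and the brightest probe over all arrays stood for the gene. Each 2-colour array carried Cy3-labelled RNA of mock cells, recorded as not transfected, and Cy5-labelled RNA of the same line after delivery of a small RNA with Lipofectamine RNAiMAX, a cationic lipid. A498 and 786-O, both renal cancer lines, received mature miR-139-5p or miR-139-3p (n = 2 arrays per strand, 1 per line). MDA-MB-231, a breast cancer line, received 1 of 2 siRNAs against GINS1, a subunit of the replicative helicase (n = 2 arrays, 1 per siRNA). HCT116, a colorectal cancer line, received miR-490-5p (n = 1) or miR-490-3p (n = 1). A control that had received the lipid with an inert RNA was not analysed here, so the lipid, the small RNA and culture handling cannot be told apart in any ratio.

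The ER lumen is where secreted and membrane proteins fold. HSPA5 (BiP) is its Hsp70 chaperone and HSP90B1 (GRP94) its Hsp90, while calnexin and calreticulin hold glycoproteins through their sugars and the PDI enzymes make and reshuffle disulfide bonds. When unfolded clients accumulate, ATF6, IRE1 with XBP1, and PERK with ATF4 raise the transcription of many of these genes, the unfolded protein response. ATF6 and XBP1 act through ER stress response elements in promoters, which join the motifs CCAAT and CCACG at a set distance.

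The promoters are shown because such elements are the textbook route of the shared induction of these genes. RefSeq windows from 250 bases before to 50 bases after a transcription start (GRCh38.p14) were given for 9 of the 10 genes. PDIA3 had none in the table. Both strands were searched for ERSE, in which CCAAT is followed after 9 bases by CCACG, and for ERSE-II, in which ATTGG is followed after 1 base by CCACG. Matches of one motif did not overlap those of the other in any window shown. ERSE was found in 5 of the 9 genes and ERSE-II in 2 others, so that 7 of 9 (77.8%) held a match against 44 of 27305 genes with a window (0.161%). Of the wider set of other ER folding factors 2 of 32 (6.25%) held one, and of genes of the ATF4 and CHOP programme 0 of 18. The windows of PDIA4 and DNAJB11 held no match to these exact letters. Because the elements are known from the induction of such genes, a high share among them was likely from the outset. The share is a description, and a link between a match and the ratios was not tested. Each sequence below is written 5′ to 3′ on the strand of the gene, with the match in capitals. A match that begins with CGTGG is the same motif on the opposite strand. The CANX match lay in the windows of 3 starts, at 151, 9 and 189 bases before them, and the first distance is printed.
HSPA5 (chr9:125241376-125241424, minus strand, 66 bases before the start): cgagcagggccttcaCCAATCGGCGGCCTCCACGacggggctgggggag
HSP90B1 (chr12:103930201-103930249, plus strand, 194 bases before the start): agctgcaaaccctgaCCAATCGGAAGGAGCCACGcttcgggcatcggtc
HSP90B1 (chr12:103930306-103930354, plus strand, 89 bases before the start): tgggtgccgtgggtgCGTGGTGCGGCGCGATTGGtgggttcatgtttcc
CALR (chr19:12938369-12938417, plus strand, 225 bases before the start): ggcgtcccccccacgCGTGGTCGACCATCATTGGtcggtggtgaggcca
CANX (chr5:179698763-179698811, plus strand, 151 bases before the start): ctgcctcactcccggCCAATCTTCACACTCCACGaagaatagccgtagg
PDIA6 (chr2:10812838-10812886, minus strand, 86 bases before the start): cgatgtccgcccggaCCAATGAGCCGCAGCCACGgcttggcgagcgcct
HYOU1 (chr11:119057365-119057405, minus strand, 185 bases before the start): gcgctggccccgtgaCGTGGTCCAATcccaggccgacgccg
HYOU1 (chr11:119057259-119057299, minus strand, 79 bases before the start): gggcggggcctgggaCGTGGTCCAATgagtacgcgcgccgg
SDF2L1 (chr22:21642099-21642139, plus strand, 188 bases before the start): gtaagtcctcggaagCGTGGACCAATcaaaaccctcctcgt

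The small RNAs transfected into HCT116 were the strands of 1 duplex and have unlike seeds, the bases 2 to 8 that lead target pairing, in capitals here.
miR-490-5p (chr7:136903205-136903224, plus strand): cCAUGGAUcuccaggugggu
miR-490-3p (chr7:136903242-136903263, plus strand): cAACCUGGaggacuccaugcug
Target sites for these seeds were not searched in the transcripts of the 10 genes.

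All 13 probes were well above background in both channels on all 8 arrays, so no gene was lost to a filter on dim signal. Markers matched the labelled lines in part. In mock HCT116 cells EPCAM, CDH1 (log2 level 9.29) and CDX2 (7.70) had their highest levels and VIM its lowest (6.81, against 14.85 to 15.32 in the other lines), whereas VIL1, an intestinal marker, was not above background in any line and CDX1 differed little between lines (6.76 to 7.19). PAX8, a renal marker, was at 8.23 and 8.16 in A498 and 786-O and at or under 6.76 in the others. GINS1 itself had a log2 ratio of -1.31 with siRNA 1 and -1.92 with siRNA 2. The median log2 ratio over all genes measured on an array lay between 0.00 and 0.02, and the mock channels of the arrays of HCT116 differed with an SD of 0.08 over probes.

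In HCT116 every one of the 10 genes had less signal in transfected than in mock cells, whichever strand of miR-490 was used. For miR-490-5p the log2 ratios ran from -2.39 to -0.63 (median -1.40), for miR-490-3p from -1.57 to -0.50 (median -1.06). At or below -1 were 7 of 10 genes with the 5p strand and 6 of 10 with the 3p strand. Of all genes measured, 1.1% were this low for the 5p and 0.665% for the 3p strand. On both arrays at once 6 of the 10 passed, and 0.3% of all genes. Below 0 on both were 28% of all genes. These counts restate how the genes were chosen, and nothing is read from them.

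**Figure D1:**
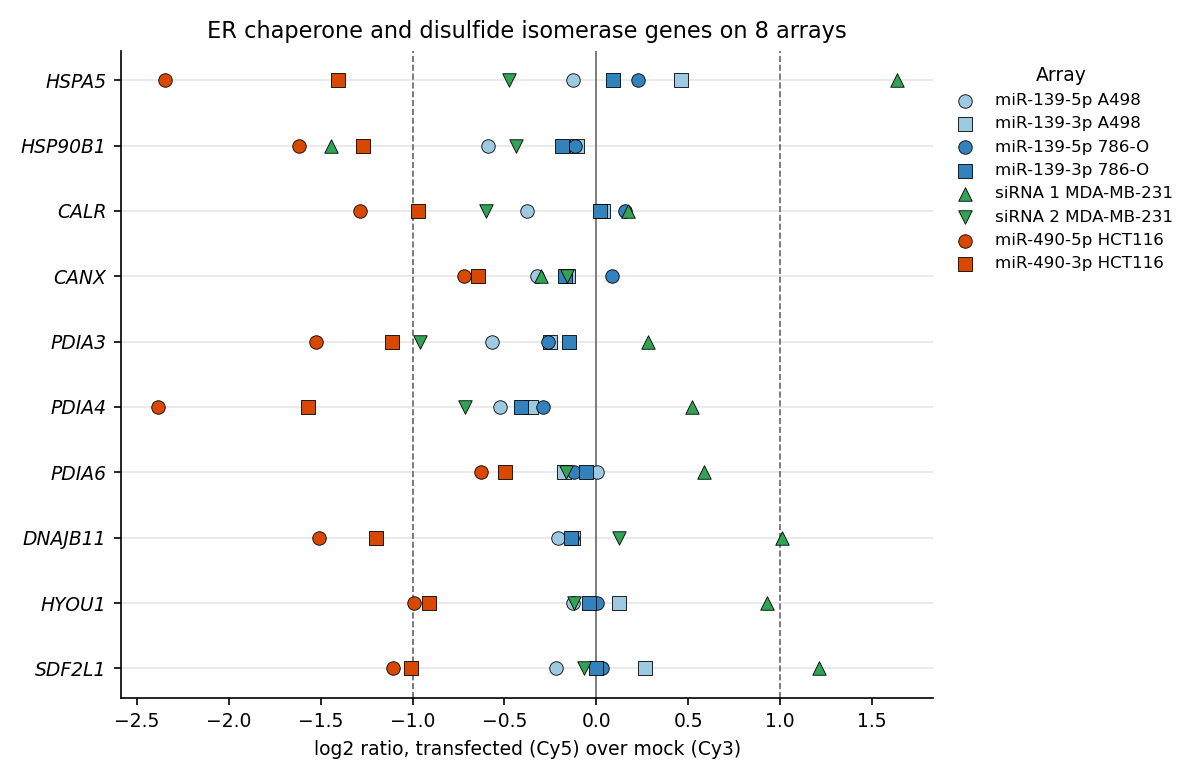
Log2 ratio of transfected (Cy5) over mock (Cy3) for the 10 genes, 1 symbol per array, with colour for the cell line and dashed lines at -1 and 1. The orange symbols of HCT116 lie between -2.39 and -0.50, while the green triangles of siRNA 1 reach 1.63 for HSPA5 and -1.44 for HSP90B1.

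HSPA5, the luminal Hsp70, was at -2.35 for the 5p strand and at -1.41 for the 3p strand, that is 5.09 and 2.65 times less signal than in the mock. A498 gave log2 ratios of -0.12 (miR-139-5p) and 0.46 (miR-139-3p), and 786-O gave 0.23 and 0.09. With siRNA 1 and siRNA 2 in MDA-MB-231 it was 1.63 and -0.48. It thus had the widest spread of the 10 over the 8 arrays, and both HCT116 arrays lay below all others.

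DNAJB11, an Hsp40 that hands clients to HSPA5, followed with -1.51 and -1.20 in HCT116 for the 5p and the 3p strand. Its ratios on the 6 arrays of the other lines ran from -0.21 to 1.01. HYOU1, an Hsp110 that exchanges the nucleotide of HSPA5, was at -0.99 and -0.91 in HCT116 and between -0.13 and 0.93 elsewhere. Its probe was dim, and the background correction used draws the ratios of dim probes toward 0. SDF2L1, which works with DNAJB11 on HSPA5 clients, was at -1.11 and -1.01, and between -0.22 and 1.21 elsewhere. For all 3 of these HSPA5 partners both HCT116 values lay below the other 6 and the highest value was that of siRNA 1.

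HSP90B1, the luminal Hsp90, was at -1.62 and -1.27 in HCT116, and its second probe was at -1.55 and -1.16. It was the one gene whose HCT116 ratios overlapped those of the other lines, since siRNA 1 gave -1.44 (-1.18 on the second probe). The remaining 5 arrays lay between -0.59 and -0.10. For the other 9 genes both HCT116 ratios lay below all 6 others, a pattern held by 8.27% of all genes measured on every array. The HCT116 ratios chose the genes, so nothing is read from this count.

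Among the glycoprotein lectins, calreticulin (CALR), the soluble form, was at -1.29 for the 5p and -0.97 for the 3p strand of miR-490, against -0.60 to 0.17 on the other arrays. Calnexin (CANX), its membrane-bound relative, was closer to 0 at -0.72 and -0.64, against -0.32 to 0.09. The probes of CANX disagreed. The second, whose signal was dimmer, was at -0.32 with the 5p strand and at 0.08 with the 3p strand, so the lower CANX signal with miR-490-3p rests on 1 probe.

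The disulfide isomerases spanned the range of the 10 genes on both HCT116 arrays. PDIA4 (ERp72) had the lowest ratio of all with miR-490-5p, -2.39, or 5.23 times less signal, and the 3p strand gave -1.57. On the other 6 arrays it lay between -0.71 and 0.52. PDIA3 (ERp57), the partner of both lectins, was at -1.53 and -1.11, against -0.96 to 0.28. Its second probe, also dimmer, gave -0.65 and -0.17. PDIA6 (P5), which associates with HSPA5, was nearest to 0 among the 10 with -0.63 and -0.50, against -0.18 to 0.59.

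The strands of miR-490 differed in size for the same genes. All 10 had a lower ratio with miR-490-5p than with miR-490-3p, an order found in 49.7% of all genes measured on both arrays. The difference of 3p minus 5p had a median of 0.31 over the 10 genes and of 0.00 over all genes. It was largest for HSPA5 (0.94) and PDIA4 (0.82). It was smallest for CANX (0.08, but 0.40 on its second probe), HYOU1 (0.08) and SDF2L1 (0.09), which is near the SD of 0.08 between both mock channels of this line. That SD holds no spread between transfected cultures. The strands were not tested against each other for these genes, which were chosen on both arrays, 1 per strand.

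The level of each channel was set side by side across lines after the arrays had been brought to a common distribution of mean intensity. Levels are log2 intensities, and were compared within a probe only. In mock cells HSPA5 was at 10.13 and 9.96 on the HCT116 arrays. The A498 mocks were at 8.34 and 8.49, the 786-O mocks at 8.52 and 8.45, and the MDA-MB-231 mocks at 8.64 and 8.63. A498 and 786-O overlapped for this gene, MDA-MB-231 stood just above them, and HCT116 exceeded the mean of the other 3 lines by 1.53, or 2.89-fold. In transfected cells the order was another. In HCT116, HSPA5 was at 7.78 (5p) and 8.55 (3p), against 8.15 to 10.28 on the other 6 arrays, and its mean in HCT116 was 0.65 below that of the other lines.

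**Figure D2:**
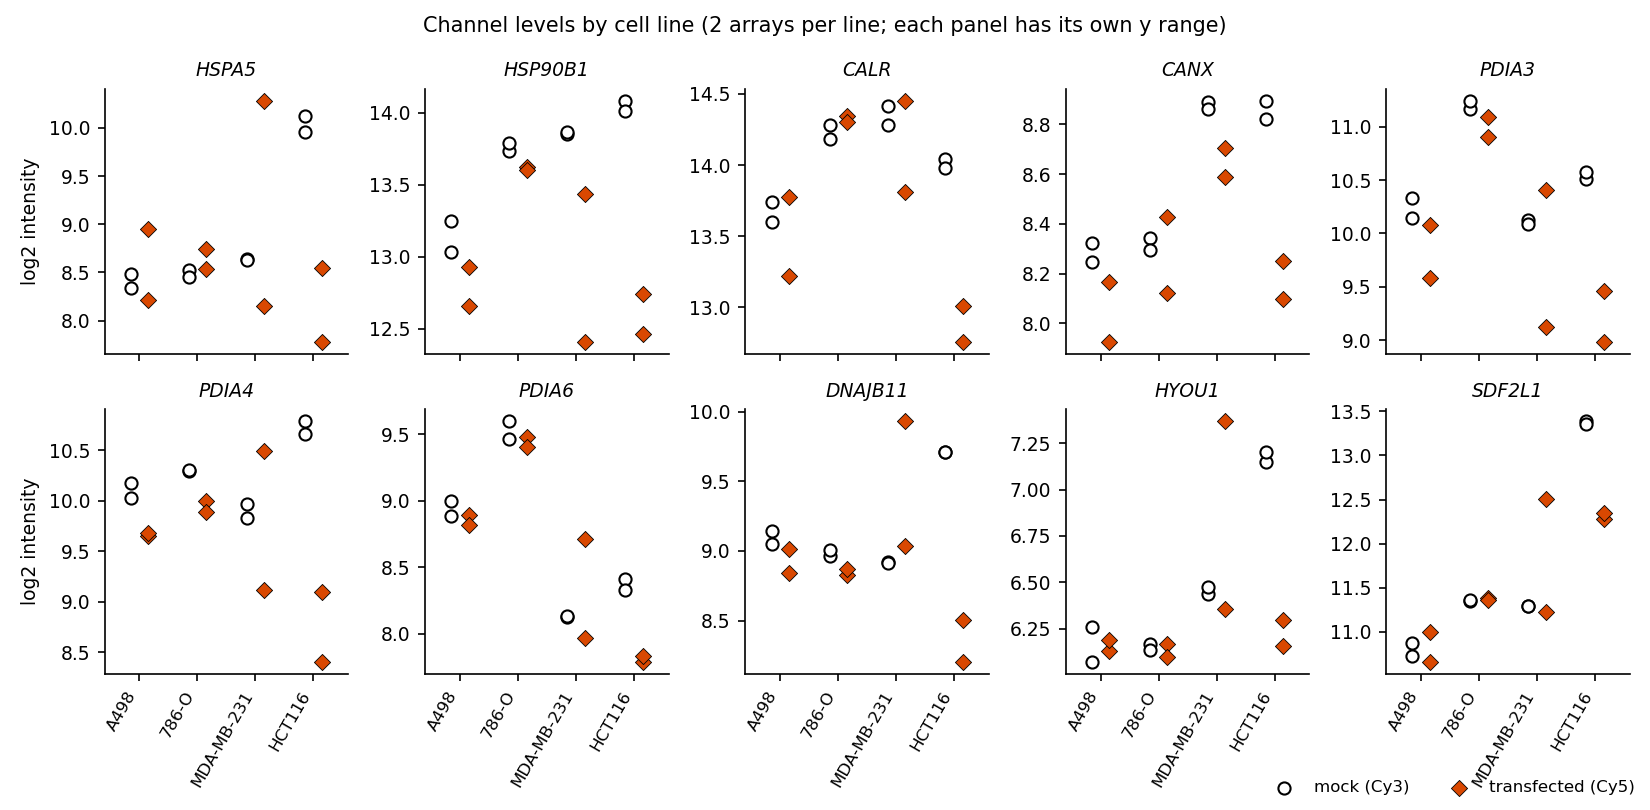
Log2 intensity of the mock (open circles) and transfected (orange diamonds) channel of each array, for the 10 genes in the 4 cell lines, 2 arrays per line. In MDA-MB-231 the diamonds are siRNA 1 and siRNA 2, and in HCT116 miR-490-5p and miR-490-3p; mock HSPA5 and SDF2L1 stand highest in HCT116.

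SDF2L1 had the largest mock excess of HCT116, 13.39 and 13.36 against 10.73 to 11.36 elsewhere, which is 2.23 above the mean of the other lines (4.68-fold). Its transfected level in HCT116, 12.28 and 12.35, still exceeded the mean of the other lines by 0.96, although siRNA 1 reached 12.51. HYOU1 (0.92), DNAJB11 (0.71), PDIA4 (0.62) and HSP90B1 (0.46) were higher in mock HCT116 cells as well. For these 6 genes both mock HCT116 arrays lay above all 6 other mock arrays, a pattern that 25.3% of all genes measured showed. An excess of 1 or more was seen for HSPA5 and SDF2L1, 2 of 10, against 5.43% of all genes. That of HYOU1, a dim probe, ran from 0.824 to 1.496 over the ways of setting the levels and was highest with an offset of 10.

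The other 4 genes did not have this order in the mock, although 8 of 10 means exceeded that of the other lines (51.3% of all genes). CANX was at 8.82 and 8.89 in HCT116 and overlapped MDA-MB-231 (8.89 and 8.86), although its mean stood 0.36 above that of the other lines. PDIA3 was highest in 786-O (11.17 and 11.24) and its mean in HCT116 differed from that of the other lines by 0.03. CALR in HCT116 (14.04 and 13.98) was below both 786-O and MDA-MB-231, a difference of -0.07. PDIA6 was highest in 786-O (9.60 and 9.46) and was lower in HCT116 than on average elsewhere, a difference of -0.50.

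In transfected cells 9 of the 10 genes were lower in HCT116 than the mean of the other lines (48.9% of all genes), SDF2L1 being the exception. The differences were -1.10 for CALR, -1.07 for PDIA6, -1.06 for PDIA4, -0.97 for PDIA3, -0.73 for DNAJB11, -0.65 for HSPA5, -0.51 for HSP90B1, -0.16 for HYOU1 and -0.15 for CANX. For 7 genes the mean of HCT116 was the lowest of the 4 lines, against 23.5% of all genes measured. For CALR, PDIA4, PDIA6 and DNAJB11 both HCT116 arrays lay below all 6 others, against 12.2% of all genes. The medians over the 10 genes were 0.54 in mock and -0.69 in transfected cells, and 0.01 for both over all genes.

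**Figure D3:**
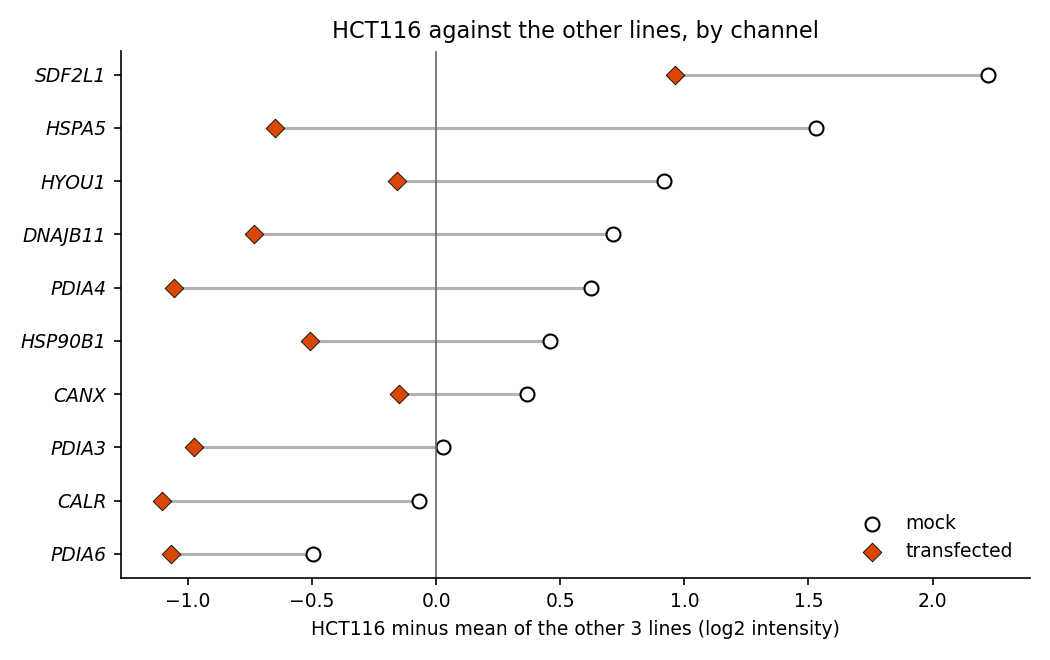
Difference between the level in HCT116 and the mean of the other 3 lines, in log2 intensity, for mock (open circles) and transfected cells (orange diamonds), with genes ordered by the mock difference. Mock differences run from -0.50 for PDIA6 to 2.23 for SDF2L1, and transfected ones from -1.10 for CALR to 0.96 for SDF2L1.

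Both differences share their spots with the ratios that chose the genes, so a high mock level and a low ratio are not separate observations. Both mock channels of a line may hold 1 RNA extract, and the lines differ in tissue of origin, so the mock excess of HCT116 was not tested, and a property of the line and the state of its mock culture cannot be told apart. The sign depended on the scaling for some genes. Over 9 ways of setting the levels, 7 genes were always above the other lines in mock cells (HSPA5, HSP90B1, CANX, PDIA4, DNAJB11, HYOU1 and SDF2L1) and 6 were always below in transfected cells (HSPA5, CALR, PDIA3, PDIA4, PDIA6 and DNAJB11). HSPA5, PDIA4 and DNAJB11 did both. The share of all genes that kept a sign in this way was not counted, so nothing is read from these counts. In bulk RNA, fewer cells that express a gene and less RNA per cell cannot be told apart.

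In MDA-MB-231 most of the 10 genes had unlike ratios with the GINS1 siRNAs. With siRNA 1 the median log2 ratio was 0.55, with 8 genes above 0, and with siRNA 2 it was -0.30, with 9 genes below 0. Over all genes the medians were 0.02 and 0.00, and the shares above or below 0 were not counted. With median centring in place of loess the medians of the 10 genes were 1.09 and 0.00352, so the sign with siRNA 2 depended on the scaling. At or above 1 with siRNA 1 were HSPA5 (1.63), SDF2L1 (1.21) and DNAJB11 (1.01), 3 of 10 against 0.968% of all genes measured. With siRNA 2 the same genes were at -0.48, -0.07 and 0.12. HYOU1 followed the same pattern, at 0.93 and -0.12. PDIA4 was at 0.52 and -0.71, PDIA3 at 0.28 and -0.96, and CALR at 0.17 and -0.60, each above 0 with 1 siRNA and below 0 with the other. HSP90B1 went the other way from most, at -1.44 with siRNA 1 (0.368-fold) and -0.44 with siRNA 2. CANX was below 0 with both, at -0.30 and -0.16.

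For 8 of 10 genes the ratio was higher with siRNA 1 than with siRNA 2, and for 5 of them by 1 or more, against 50.7% and 2.87% of all genes. These 5 were HSPA5 (2.11), SDF2L1 (1.28), PDIA3 (1.24), PDIA4 (1.23) and HYOU1 (1.05). HSP90B1 had a difference of -1.01, and 2.58% of all genes were at or below -1 in that sense. The transfected level of HSPA5 with siRNA 1, 10.28, was near that of mock HCT116 cells (10.13 and 9.96). Each siRNA had 1 array, so the difference between them was not tested.

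**Figure D4:**
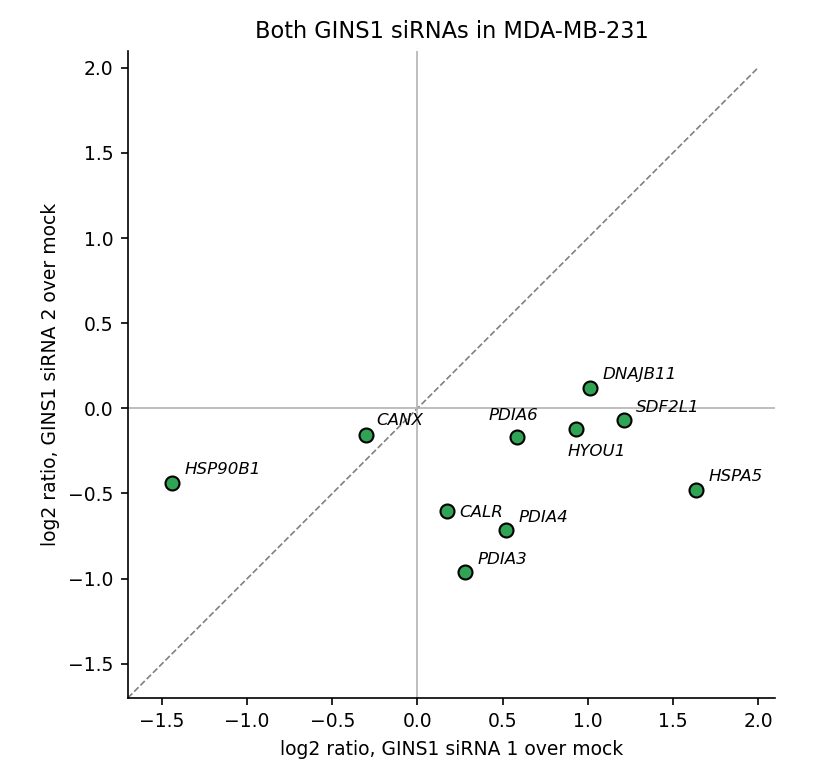
Log2 ratio over mock with GINS1 siRNA 1 (x axis) and siRNA 2 (y axis) in MDA-MB-231, 1 point per gene, with a dashed line where both are equal. Of the 10 points 8 lie below the line, HSPA5 farthest (1.63 and -0.48), and HSP90B1 lies far to the left (-1.44 and -0.44).

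Tested over both siRNAs with limma, 0 of the 13 probes had an adjusted p under 0.05, against 6.95% of all probes tested. By gene it was 0 of 10, against 7.47% of all genes tested. An unadjusted p under 0.05 was found for 2 of the 10 genes (27.1% of all genes), through 3 of the probes. These were both probes of HSP90B1 (mean log2 ratio -0.94, SE 0.26, limma adjusted p = 0.104, and -0.71, SE 0.23, limma adjusted p = 0.141) and the probe of DNAJB11 (0.57, SE 0.21, limma adjusted p = 0.177). HSPA5 had a mean of 0.58 with an SE of 0.50, since its 2 arrays lay on opposite sides of 0. The count depended on single arrays. Without siRNA 1 it was 2 of 10 genes, against 23.4% of all probes tested, and without siRNA 2 it was 7 of 10, against 31.9%, where the lone siRNA was taken to vary like the other groups.

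In the renal lines 0 of the 10 genes passed the test with either strand of miR-139. For the 5p strand the ratios ran from -0.59 to 0.01 in A498 (median -0.27) and from -0.29 to 0.23 in 786-O (median -0.06). For the 3p strand the A498 ratios ran from -0.35 to 0.46 (median -0.11) and those of 786-O from -0.41 to 0.09 (median -0.10). PDIA4 was below 0 on all 4 renal arrays, at -0.52 and -0.29 for the 5p strand and -0.35 and -0.41 for the 3p strand, and so were HSP90B1, PDIA3 and DNAJB11. The share of all genes with this pattern was not counted. The limma fit called 0 of the 10 genes (13 probes) for miR-139-5p, against 0.0168% of all genes, and 0 for miR-139-3p, against 0%. Likewise 0 were called for the difference between the strands, against 0%. In these 3 tests 0 of the 10 genes had an unadjusted p under 0.05, against 2.78%, 4.86% and 0.706% of all genes. Mean log2 ratios lay between -0.42 and 0.05 for miR-139-5p, with SEs up to 0.49, and between -0.38 and 0.27 for miR-139-3p. With 2 arrays a group a shift within these SEs was not detectable, and a larger one could also go uncalled. In the same fit HSP90B1 with si-GINS1 was not called at a mean of -0.94 and an SE of 0.26 (limma adjusted p = 0.104). The SEs pool the spread of each probe over all groups of 2 arrays, the siRNAs included. For PDIA4 with miR-139-3p the SD between the lines was 0.04 and the SE 0.28.

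Other genes of ER protein folding and of the stress pathways were set beside the 10 from 6 lists. With miR-490-5p the list with the lowest median was the ATF4 and CHOP programme, the amino acid and stress genes downstream of PERK and related kinases, at -1.30, with 14 of 21 measured genes at or below -1. On the miR-490-3p array its median was -0.48, with 5 of 21. Named as the lowest of this list by the mean of both arrays, TRIB3, a pseudokinase, was at -2.08 with the 5p and -1.54 with the 3p strand. ASNS, the asparagine synthetase, was at -2.37 and -1.18, and DDIT3, which encodes CHOP, at -1.54 and -1.44. The highest of the list were PSPH (-0.18 and 0.01), PPP1R15A (-0.09 and -0.19) and ATF3 (-0.35 and -0.06).

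The other ER folding factors had a median of -0.49 with miR-490-5p (7 of 34 at or below -1) and of -0.23 with miR-490-3p (3 of 34). Both were nearer 0 than the medians of the 10 genes, which had been chosen for low ratios on these arrays. The lowest were MANF, a secreted ER stress protein (-1.18 and -1.47), CRELD2 (-1.38 and -1.12) and DNAJC3, a cochaperone of HSPA5 (-1.19 and -1.18, from the brightest of 2 probes, the other averaging 0.02). The highest were SDF2, the relative of SDF2L1 (0.41 and 0.57), TMX4 (0.32 and -0.11) and PRDX4 (-0.05 and 0.16). SDF2 and SDF2L1 thus lay on opposite sides of 0. MANF, CRELD2 and DNAJC3 also had more signal in mock HCT116 cells than the mean of the other lines, by 1.87, 2.01 and 1.41.

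Genes of the unfolded protein response sensors and of ER-associated degradation had medians of -0.38 and -0.24 (4 and 3 of 28 at or below -1). The lowest were NUCB2 (-1.25 and -1.74), HERPUD1 of the degradation machinery (-1.64 and -1.08) and SEL1L, its scaffold (-0.94 and -1.50, from the brightest of 3 probes, the others averaging -0.13 and -0.52). The highest were UFD1 (0.47 and 0.32), UBE2G2 (-0.10 and 0.38) and WFS1 (0.13 and 0.03). ER translocation and N-glycosylation had medians of -0.44 and -0.21 (3 of 22 and 2 of 23 at or below -1). Its lowest were STT3A, a catalytic oligosaccharyltransferase subunit (-1.25 and -1.42), STT3B (-0.45 and -1.26) and SEC61A1, the translocon channel (-1.15 and -0.54). Its highest were SEC61G (0.17 and 0.18), SRP54 (0.23 and 0.10) and DAD1 (0.29 and 0.00).

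ER to Golgi carriers and KDEL receptors, which return luminal chaperones that carry a retrieval signal, had medians of -0.22 and -0.10 with 0 of 20 at or below -1 on either array. KDELR1 was at -0.71 and -0.45, TMED2 at -0.52 and -0.85 and SEC24D at -0.79 and -0.53, the lowest of the list. ARF4 (0.16 and 0.52), SEC23A (0.40 and 0.28) and COPA (0.36 and 0.23) were its highest. Cytosolic and mitochondrial chaperones, which serve other compartments, had medians of 0.13 and 0.39, with 0 of 21 at or below -1. HSPH1, the cytosolic Hsp110, was at 0.72 and 0.85 (0.33 on average for its other probe), DNAJB6 at 0.93 and 0.63 (its other probes averaged 0.72 and 0.07), and HSPE1, the mitochondrial Hsp10, at 0.70 and 0.79. At the low end TRAP1, the mitochondrial Hsp90, was at -0.86 and 0.40, HSPD1 at -0.67 and 0.45, and HSP90AB1, the cytosolic Hsp90, at -0.24 and 0.11.

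**Figure D5:**
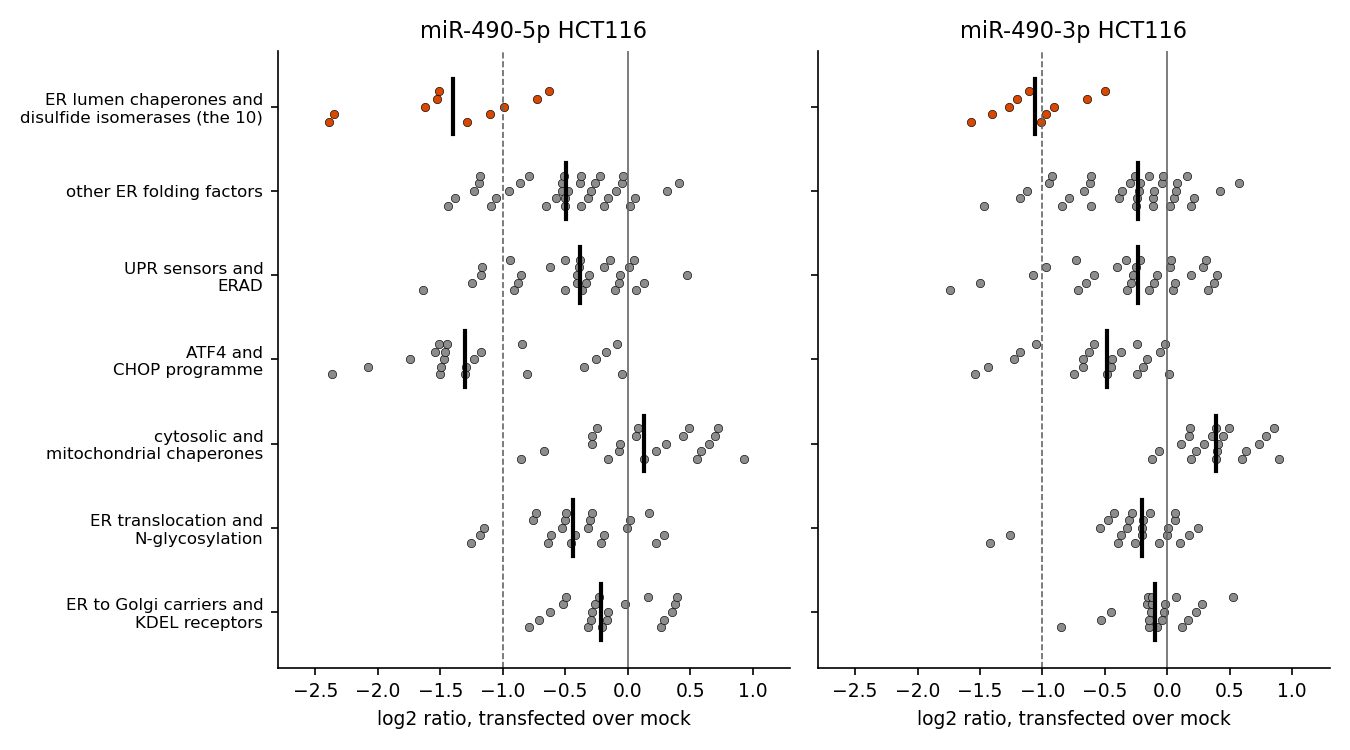
Log2 ratio of transfected over mock in HCT116 for the measured genes of 7 lists, 1 point per gene, with the median as a black bar, for miR-490-5p (left) and miR-490-3p (right). The 10 genes (orange) have medians of -1.40 and -1.06, and the cytosolic and mitochondrial chaperones 0.13 and 0.39.

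With si-GINS1, 13 of 148 tested genes of these 6 lists (8.78%) were called by limma, against 7.47% of all genes. Of all list genes 0 were called in a fit of these arrays alone, with the scanner log ratio, or where the prior was robust and followed a variance trend. Of all probes tested 0%, 0.27% and 0% were called under these settings in turn. The calls with si-GINS1 thus depended on the setting for all genes, and nothing is read from these zeros about the lists. Of the sensors and degradation genes 4 of 28 were called higher, against 3.58% of all genes, and 0 lower, against 3.89%. They were ERN1, which encodes IRE1 (mean 0.87, SE 0.11, limma adjusted p = 0.026), ATF6 (0.37), DERL1 (0.54) and UBE2G2 (0.55). The genes of this paragraph are named because they were called. In the ATF4 and CHOP programme ATF3 alone was called (1.38, SE 0.19, limma adjusted p = 0.0278). Among the other ER folding factors SDF2 (0.47) and DNAJC1 (0.52) were called higher and SIL1 (-0.40) lower. The remaining 5 were TRAP1 (0.49), SPCS3 (0.55), SAR1B (0.62) and TMED2 (0.58), called higher, and GANAB (-0.54), called lower. For miR-139 and its strands 0 genes of any list were called.

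The ratios of the 10 genes over the 8 arrays were also compared with each other. Pearson's r between a gene and the mean of the other 9 lay between 0.77 (CANX) and 0.99 (PDIA4) for 9 genes and was 0.40 for HSP90B1. The arrays are paired by line, and HCT116 sets much of this r. Because the genes were chosen for low ratios on both HCT116 arrays, a high r was likely from the outset. This r is a description, and nothing is read from it. The same ratios ranked the genes that follow. Among the 15817 other named genes or transcripts measured on all arrays, those most like the mean of the 10 included ENST00000442006, a transcript for which the array gives no gene symbol and whose probe was not tested for a match to the transcripts of the 10 genes (r = 0.983), TRIM61 (0.971), CDK2AP2 (0.970), NAGS (0.969), PLCB3 (0.966), MYG1 (0.965), GPS2 (0.965), PLPBP (0.964) and CNPY3 (0.964). Their sizes differed. In HCT116 ENST00000442006 was at -1.44 and -1.09 and CDK2AP2 at -1.27 and -1.30, in the range of the 10 genes, and PLPBP was at -0.87 and -0.93. TRIM61, by contrast, was at -0.33 and -0.18. CDK2AP2 was also higher in mock HCT116 cells than the mean of the other lines, by 1.56.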

How the data were processed

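Total RNA of 4 cell lines was hybridised to 8 Agilent 2-colour arrays of 1 slide without dye swaps. The authors deposited, per the file headers, Agilent Feature Extraction 11.5.1.1 output with linear intensity of spot and local background per channel (hg19 annotation), and a log10 ratio of Cy5 over Cy3, which the series value table repeats. Columns of the value table without a sample numbered 0. Background was corrected by normexp with an offset of 50, which draws dim probes toward 0, and ratios by loess within arrays (limma 3.58.1, R 4.3.3; Python 3.11.15, numpy 2.4.6, pandas 2.3.3, matplotlib 3.10.9). Control and outlier-flagged spots were left out (112 to 194 flagged per array), 0 spots were saturated, and spots of a probe were averaged. Channel levels came after Aquantile scaling between arrays. Probes were named through RefSeq accessions (31038 of 31770 matched) or else by the annotation's name.

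Groups of 2 arrays were tested against 0 with limma, in 1 fit with 5 coefficients and 3 residual degrees of freedom and a probe entered where each array of its group had it well above background in the Cy3 or the Cy5 channel. Benjamini-Hochberg adjustment over all such probes and a threshold of 0.05 were used. The fit was run on simulated data as a check of the code. The simulated noise was independent between arrays and held no dye bias or shared mock, so nothing is read from it about the calls. Replicates were cell lines or siRNAs. The spread of a probe was pooled over the groups of 2 arrays, so p-values for miR-139 also carry the spread between the siRNAs. Those for si-GINS1 likewise carry the spread between the renal lines. A test against 0 does not carry the mock's own spread. The strand contrast of miR-139 was also fitted with the cell line as a block. Deviations of arrays of a line correlated at 0.0753. For HCT116, with 1 array per strand, a size rule of -1 or 1 was used. Members, lists and tests were chosen with earlier results of these data known. Named genes were all 10 members, up to 3 lowest and 3 highest of each list by mean HCT116 ratio, the 10 unlisted genes closest to the member mean (1 of them is not reported here), GINS1 and markers. Alternatives were no background correction, an offset of 10, median centring, the scanner log ratio, the median of all probes, no filter on dim probes, a correction for dye bias, other level scalings, other variance models and leaving out arrays or lines. Precision is limited by the number of arrays.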

Additional observations from a re-analysis of the deposited data

Results flagged for a closer look

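The median of the ER to Golgi carriers and KDEL receptors lay above 0 on both A498 arrays, at 0.0765 for the 5p and 0.0677 for the 3p strand of miR-139, and below 0 on both 786-O arrays, at -0.0551 and -0.0192. The lines were thus on opposite sides of 0, and the difference was not tested. The split did not hold with median centring, where miR-139-3p in 786-O was at 0.198, nor with the scanner log ratio, where it was at 0.000566. Of the 10 genes 0 had such a split, and no group had enough arrays for a search for outlying samples.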

How the results depend on the processing

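All 10 genes stayed below 0 on both HCT116 arrays under all 8 ways of computing the ratio, the main one included. Leaving out the filter on dim probes could not change these values, since it removed none of the 10 genes. The correction for dye bias subtracted, per gene, the mean ratio of the 6 arrays of the other lines. It therefore also subtracts any response on those arrays. The median with miR-490-5p was -1.52 without background correction, -1.60 with an offset of 10, -1.16 with median centring, -1.59 with the scanner log ratio, -1.20 over all probes of a gene and -1.20 after the correction for dye bias. With miR-490-3p it was -1.22, -1.23, -0.79 and -1.21 under the first 4 of these and -0.96 after the dye correction. Median centring cut the genes at or below -1 with miR-490-3p from 6 to 2, and gave 0.47 for the median of 3p minus 5p. It also shifted all genes, whose median became 0.18 on the array of siRNA 1 and 0.14 on that of miR-139-5p in A498, and the median of the 10 genes to 0.0453 there, to 0.0602 with miR-139-3p in A498 and to 0.0996 with miR-139-3p in 786-O. For miR-139-3p the median in A498 was -0.13 without background correction, with an offset of 10 and with the scanner log ratio, and -0.0910 over all probes. In 786-O it was -0.11, -0.13, -0.12 and -0.0468. Without normalization between arrays the median level difference of HCT116 was 1.102 in mock and -0.18 in transfected cells. It was 0.44 and -0.79 without A498, 0.63 in mock cells without 786-O and -0.57 in transfected cells without MDA-MB-231. With si-GINS1, 2 genes were called with the cell line as a random block (HSP90B1 and DNAJB11), against 26.5% of all probes, and 2 to 7 when 1 array was left out, against 23.4% and 31.9%, PDIA4 then being called at 0.52 without siRNA 2 and at -0.71 without siRNA 1, around its mean of -0.10. No member was called in the miR-139 tests under any alternative, the cell line as a block included (0 called). The cause of these shifts was not tested. Dim probes such as that of HYOU1 are limited by the offset, which compresses their differences.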
